A study of Mus musculus with 8 samples.

Results

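The lysosomal hydrolase and proton pump genes are a set of 46 named genes. They encode the acid hydrolases that digest cargo inside the lysosome, the membrane proteins of that organelle, the subunits of the V-ATPase proton pump that acidifies it, and TFEB, a transcription factor of lysosomal genes. The members were taken as a list of names with no measured value in the rule, and all 46 of the list were found among the 27179 genes of the table. They were read in 8 subcutaneous tumors by bulk RNA-seq of polyadenylated RNA, 4 labelled cxC26 scr and 4 labelled cxC26 IL6KOs1. cxC26 is a cachexia-inducing derivative of C26, a mouse colon carcinoma line. The scr cells carry a scrambled guide, and the IL6KOs1 cells were edited at Il6 with a CRISPR/Cas9 lentiviral vector and are 1 subclone, s1, so the loss of IL-6 and the history of that clone cannot be told apart. Hosts were immunocompetent CD2F1 male mice, 13 to 18 weeks old per the study's methods, and the tumors were taken once the host had reached cachexia, over 15% loss of body weight. IL6KOs1 tumors took longer to reach that point in the study's other experiments and were started there from more cells, and the times for the sequenced tumors were not stated.

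The lysosome is the acidic compartment in which proteins, sugar chains and lipids delivered by endocytosis and autophagy are broken down. Most of its soluble enzymes carry a mannose 6-phosphate tag that sorts them from the Golgi, and they work at the low pH that the V-ATPase sets by pumping protons through its membrane sector V0 with energy from ATP split by its cytosolic sector V1. Macrophages and the related bone-resorbing osteoclasts are rich in lysosomes and use tissue-selective pump subunits and cathepsins, while every nucleated cell uses the basic set.

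Each tumor had 14158989 to 17048062 reads on genes. Il6 itself, the edited gene, had 356, 326, 376 and 438 reads in the scr tumors and 64, 56, 86 and 59 reads in the IL6KOs1 tumors, which left 18.3% of the scr level. An RNA count does not show whether the remaining transcripts can be translated. Among 9 epithelial genes written down to check the label, Krt20 was high in every tumor at 10.07 to 10.48 log2 CPM (CPM, a gene's reads scaled to the size of the library), whereas Epcam, Krt19, Vil1 and Lgr5 did not pass 14 reads in any tumor. Other genes of that list differed between the groups. Krt18, a keratin, was 9.19-fold higher in IL6KOs1 tumors (log2 fold change 3.20 ± 0.23, limma adjusted p = 3.02e-06) and Cdh1, E-cadherin, 2.75-fold higher (1.46 ± 0.30, limma adjusted p = 0.00251). Cdx2, an intestinal transcription factor, had 32, 24, 34 and 17 reads in scr and 1, 0, 0 and 0 reads in IL6KOs1 tumors.

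In the IL6KOs1 tumors 17 members were higher, 5 were lower and 24 passed the test in neither direction. A call means an adjusted p under 0.05 in limma over 13262 tested genes, those that reached 1 CPM in 4 or more tumors, and all 46 members were among them. The 17 members that rose are 37.0% of the set, while 19.1% of all tested genes were called higher. The 5 members that fell are 10.9% of the set, while 20.7% of all tested genes were called lower. In 14 members every IL6KOs1 tumor was above every scr tumor, against 17.8% of tested genes, and in 5 every IL6KOs1 tumor was below, against 19.3% of tested genes. The differences were small for most members. The median log2 fold change was 0.22 over the members and -0.0029 over all tested genes, 37 members had a positive difference, and only Ctsc and Ctss rose by at least 2-fold.

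**Figure D1:**
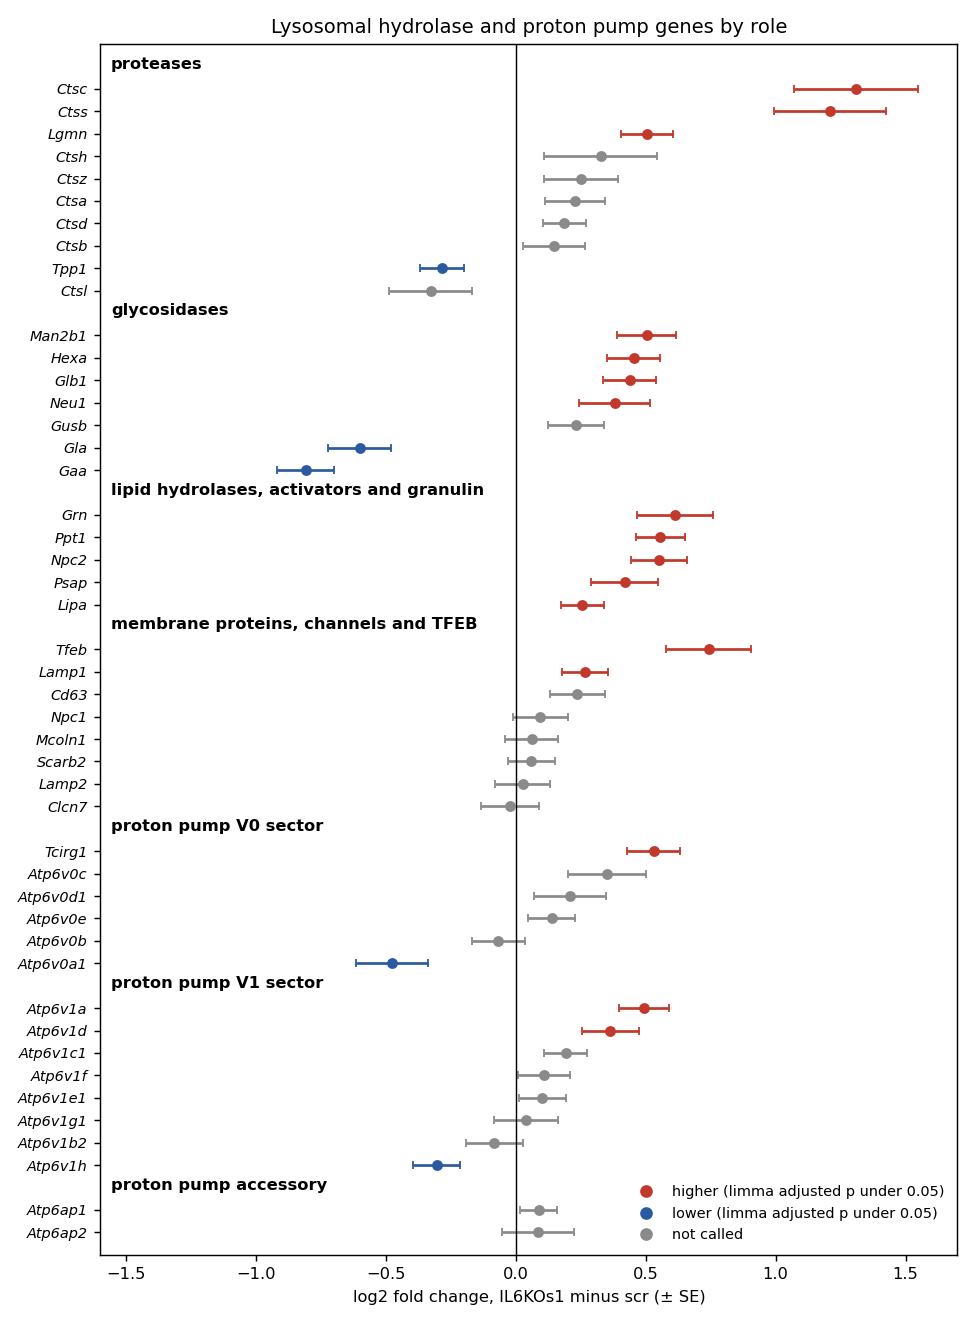
The log2 fold change of each of the 46 genes (x axis, IL6KOs1 minus scr, bars ± SE) is drawn by role, red for called higher, blue for called lower and grey for not called. The lipid group is red throughout, the protease and sugar-hydrolase groups hold both colours, and most proton pump genes lie near 0.

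Relative to the mean of the scr tumors, the typical member stood 0.26 log2 units higher in IL6KOs1 tumor 1, 0.22 in tumor 2, 0.24 in tumor 3 and 0.08 in tumor 4, by the median over the 46 genes. The same median lay between -0.05 and 0.03 in the scr tumors, so the groups did not overlap, and tumor 4 was the least raised. IL6KOs1 tumor 1 had the highest level of its group in 11 of the 17 members that rose, and tumor 4 had the lowest in 9. The summed level of all members did not separate: it was 13592 ± 347 CPM (SD, n = 4) in scr and 14523 ± 709 CPM in IL6KOs1 tumors, a ratio of 1.07 (two-sided exact permutation p = 0.0857). The smallest p that 4 tumors against 4 allow is 0.0286. All gene lists here were chosen with earlier results of these data known. A p for a summed level therefore only describes how far the tumors separate and is no test of the list.

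By role, 12 of the 22 hydrolases and activators rose (54.5%) and 3 fell (13.6%), with a median log2 fold change of 0.35. Among the 16 proton pump genes 3 rose (18.8%) and 2 fell (12.5%), with a median of 0.10, and their share of rises was close to the 19.1% of all tested genes. Whether these roles differ was not tested.

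The 10 proteases held the largest changes of the set, and they did not move as one. Ctsc, Ctss and Lgmn rose, Tpp1 fell, and Ctsl, the most abundant, was not called. The 3 rises are 30.0% of these genes, beside 19.1% of all tested genes, and the 1 fall stands beside 20.7%. Ctsc (cathepsin C, chr7:88278024-88315861 in GRCm38, the assembly also called mm10) is the dipeptidyl peptidase that activates the serine proteases of leukocyte granules. It read 6.30, 6.46, 6.29 and 6.46 log2 CPM in the scr tumors and 8.58, 7.10, 7.53 and 7.53 in the IL6KOs1 tumors. All 4 IL6KOs1 tumors were above all scr tumors, and tumor 1 was the highest by about 1 log2 unit. The difference was 1.31 ± 0.24 log2 units (SE), or 2.48-fold (limma adjusted p = 0.00128).

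Ctss (cathepsin S, chr3:95526786-95556405), which trims the invariant chain during antigen presentation, was likewise highest in IL6KOs1 tumor 1 and, within that group, lowest in tumor 2. Its levels were 6.60, 6.99, 7.04 and 6.81 log2 CPM in scr and 8.86, 7.63, 7.91 and 7.88 log2 CPM in IL6KOs1 tumors. The groups did not overlap, and the difference was 1.21 ± 0.22 log2 units, or 2.31-fold (limma adjusted p = 0.00116). Without IL6KOs1 tumor 1 the differences fell to 1.01 for Ctsc and 0.95 for Ctss and both stayed called. Lgmn (legumain, chr12:102394082-102439728), the asparaginyl endopeptidase, was at 7.94 to 8.10 log2 CPM in scr and 8.35 to 8.70 in IL6KOs1 tumors, a rise of 0.51 ± 0.10 (limma adjusted p = 0.00208). Another annotated gene overlaps 16 of the 46 members, of which 5 were called (Ctss, Hexa, Glb1, Ppt1 and Atp6v0a1), and with the strand setting unknown their reads cannot be told apart where they overlap.

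Tpp1 (tripeptidyl peptidase 1, chr7:105744811-105752282) moved the other way. It read 7.94, 7.97, 8.07 and 8.09 log2 CPM in scr and 7.77, 7.57, 7.85 and 7.73 in IL6KOs1 tumors. The groups were apart by less than 0.1 log2 units at their nearest tumors, and the log2 fold change was -0.29 ± 0.08 (limma adjusted p = 0.0192). This call was lost without scr tumor 3 (adjusted p = 0.0567) and without scr tumor 4 (adjusted p = 0.0605).

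Ctsl (cathepsin L, chr13:64361890-64370772), a cysteine endopeptidase, had the highest level of the set also per length, at 694 CPM per kilobase of exon in scr and 559 in IL6KOs1 tumors. Its log2 CPM was 11.98, 12.09, 12.22 and 12.25 in scr and 11.56, 11.57, 12.04 and 12.05 in IL6KOs1 tumors. IL6KOs1 tumors 1 and 2 lay below every scr tumor and tumors 3 and 4 within their range. The difference of -0.33 ± 0.16 was not called (limma adjusted p = 0.125), with a 95% interval from -0.68 to 0.02. Ctsl made up most of the protease sum, which was 7445 ± 385 CPM in scr and 7251 ± 533 in IL6KOs1 tumors (exact permutation p = 0.629).

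The other 5 proteases, Ctsa, Ctsb, Ctsd, Ctsh and Ctsz, had differences from 0.15 to 0.33 and none was called. The IL6KOs1 tumors spread widely in Ctsh, the aminopeptidase cathepsin H, which read 6.36 in tumor 1 and 5.03 in tumor 2, against 5.17 to 5.54 in scr. Ctsh was called without IL6KOs1 tumor 2 (0.55, limma adjusted p = 0.0241), and Ctsa and Ctsz were called without IL6KOs1 tumor 4 (0.32, adjusted p = 0.0421, and 0.39, adjusted p = 0.0236).

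**Figure D2:**
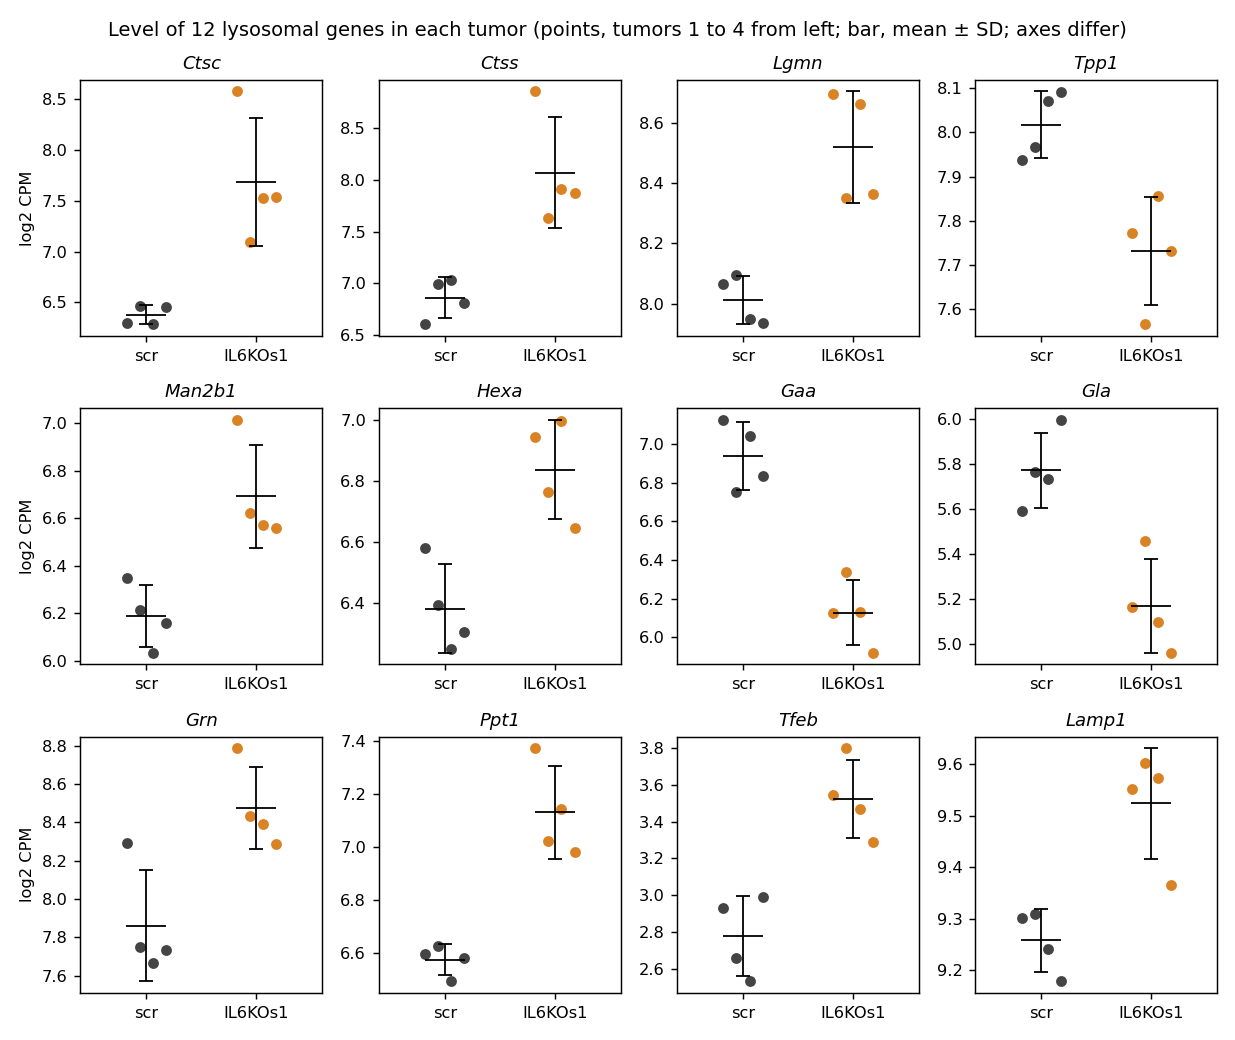
Log2 CPM (y axis, a scale of its own in each panel) of 12 lysosomal genes in the 4 scr tumors (dark) and the 4 IL6KOs1 tumors (orange), with the mean and SD as bars. Ctsc and Ctss show the widest gaps with IL6KOs1 tumor 1 on top at 8.58 and 8.86, Gaa and Gla lie lower in every IL6KOs1 tumor, and in Grn the highest scr tumor, at 8.29, reaches the IL6KOs1 range.

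The 7 glycosidases, which take sugars off glycoproteins, glycolipids and glycogen, split into 4 that rose, 2 that fell and Gusb. The rises are 57.1% of these genes and the falls 28.6%, beside 19.1% and 20.7% of all tested genes. Man2b1 (lysosomal alpha-mannosidase, chr8:85082730-85098739) read 6.35, 6.21, 6.03 and 6.16 log2 CPM in scr and 7.01, 6.62, 6.57 and 6.56 in IL6KOs1 tumors. No tumors overlapped, IL6KOs1 tumor 1 was again on top, and the rise was 0.50 ± 0.11 (limma adjusted p = 0.00457). Hexa (the alpha subunit of beta-hexosaminidase, chr9:59539540-59565109) had the highest mean log2 CPM of the group over the 8 tumors, though Gaa was higher in scr tumors, and stood at 6.58, 6.40, 6.25 and 6.31 in scr and 6.94, 6.76, 6.996 and 6.64 in IL6KOs1 tumors. The 2 nearest tumors differed by less than 0.1 log2 units, and the rise was 0.45 ± 0.10 (limma adjusted p = 0.00481). Glb1 (beta-galactosidase, chr9:114401078-114474379) rose by 0.44 ± 0.10 (limma adjusted p = 0.00572).

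Neu1, the sialidase, rose by 0.38 ± 0.14 and only just passed (limma adjusted p = 0.0448). Its groups overlapped, since IL6KOs1 tumor 4 at 4.58 lay within the scr range of 4.44 to 4.62, and the call was lost without any one of the scr tumors and without IL6KOs1 tumor 1, 2 or 3 (adjusted p 0.0619 to 0.105). Gusb, the beta-glucuronidase, differed by 0.23 ± 0.11 and was not called (limma adjusted p = 0.113). It was called without scr tumor 1, which at 6.59 was above every IL6KOs1 tumor (0.34, adjusted p = 0.00672).

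The 2 glycosidases that fell had the largest falls of all members. Gaa (acid alpha-glucosidase, chr11:119267963-119285458), the enzyme that degrades glycogen in the lysosome, read 7.13, 6.75, 7.04 and 6.84 log2 CPM in scr and 6.12, 6.34, 6.13 and 5.92 in IL6KOs1 tumors. Every IL6KOs1 tumor was below every scr tumor by at least 0.4 log2 units. The log2 fold change was -0.81 ± 0.11, which left 57.1% of the scr level (limma adjusted p = 0.000221). Gla (alpha-galactosidase A, chrX:134588169-134601005), which removes the terminal galactose of globotriaosylceramide, read 5.59, 5.76, 5.73 and 5.99 in scr and 5.16, 5.45, 5.10 and 4.96 in IL6KOs1 tumors. Its groups did not overlap either, and it fell by 0.60 ± 0.12 to 65.9% of the scr level (limma adjusted p = 0.00245). With falls beside rises, the summed glycosidase level was 473 ± 34 CPM in scr and 497 ± 38 in IL6KOs1 tumors (exact permutation p = 0.457).

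The 5 genes for lipid hydrolases, activators and granulin all rose, beside 19.1% of all tested genes, with a median log2 fold change of 0.55. Their summed level was 1824, 1515, 1408 and 1465 CPM in scr and 2542, 2178, 2085 and 1866 CPM in IL6KOs1 tumors. Every IL6KOs1 tumor was above every scr tumor, though scr tumor 1 came close to IL6KOs1 tumor 4. The ratio of the means was 1.40 (exact permutation p = 0.0286, the smallest possible, a description of a list chosen with results known).

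Grn (granulin, chr11:102430507-102436809), whose precursor progranulin is both secreted and cut into granulins in the lysosome, read 8.29, 7.75, 7.67 and 7.73 log2 CPM in scr and 8.79, 8.43, 8.39 and 8.29 in IL6KOs1 tumors. The highest scr tumor matched the lowest IL6KOs1 tumor, and the rise was 0.61 ± 0.15 (limma adjusted p = 0.00634). Ppt1 (palmitoyl-protein thioesterase 1, chr4:122836077-122859175), which removes fatty acids from proteins, read 6.60, 6.63, 6.49 and 6.58 in scr and 7.37, 7.02, 7.15 and 6.98 in IL6KOs1 tumors. Its scr tumors lay within 0.2 log2 units of each other, and it rose by 0.56 ± 0.09 (limma adjusted p = 0.000823). Npc2, the soluble cholesterol carrier, rose by 0.55 ± 0.11 with no overlap (limma adjusted p = 0.00195).

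Psap (prosaposin, chr10:60277628-60302600), the precursor of the saposins that present sphingolipids to their hydrolases, had the highest level of the group, 300.5 CPM per kilobase in scr and 403 in IL6KOs1 tumors. It read 9.94, 9.61, 9.57 and 9.59 log2 CPM in scr and 10.35, 10.18, 10.02 and 9.84 in IL6KOs1 tumors. The scr tumor 1 stood apart from its group and above IL6KOs1 tumor 4, so the groups overlapped, and the rise was 0.42 ± 0.13 (limma adjusted p = 0.0229). The call was lost without scr tumor 2, 3 or 4 or IL6KOs1 tumor 1 (adjusted p 0.058 to 0.0688). Lipa, the lysosomal acid lipase, rose by 0.26 ± 0.08 with no overlap (limma adjusted p = 0.0287) and lost the call without scr tumor 2, 3 or 4 or IL6KOs1 tumor 3 or 4 (adjusted p 0.0563 to 0.0846).

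Of the 8 membrane proteins, channels and TFEB, 2 rose, 6 were not called and none fell. The rises are 25.0% of these genes, beside 19.1% of all tested genes, while 20.7% of all tested genes fell. Tfeb (chr17:47737037-47792416), the lowest of all 46 members per kilobase, had 127, 102, 82 and 122 reads in scr and 189, 192, 174 and 141 reads in IL6KOs1 tumors. On the log2 CPM scale these were 2.93, 2.66, 2.54 and 2.99 against 3.54, 3.80, 3.47 and 3.29. The groups did not overlap, and the rise was 0.74 ± 0.16, or 1.67-fold (limma adjusted p = 0.00405). TFEB acts when it enters the nucleus, which a transcript level does not measure.

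Lamp1 (chr8:13159161-13175338), a heavily glycosylated protein of the lysosomal membrane, read 9.30, 9.31, 9.24 and 9.18 log2 CPM in scr and 9.55, 9.60, 9.57 and 9.37 in IL6KOs1 tumors. The groups were separate by less than 0.1 log2 units, and the rise was 0.27 ± 0.09 (limma adjusted p = 0.0324). It lost the call without scr tumor 2, 3 or 4 or IL6KOs1 tumor 1, 2 or 3 (adjusted p 0.0514 to 0.0956).

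Cd63 (chr10:128896231-128912822), the tetraspanin of late endosomes and exosomes, was the highest of this group. It read 9.88, 10.04, 10.04 and 10.16 in scr and 10.41, 10.33, 10.24 and 10.09 in IL6KOs1 tumors, and its difference of 0.24 ± 0.11 was not called (limma adjusted p = 0.101). IL6KOs1 tumor 4 lay among the scr tumors. The other 5, Lamp2, Scarb2 (a carrier of lysosomal enzymes), Npc1 (the membrane partner of NPC2), Mcoln1 (a calcium channel) and Clcn7 (the chloride-proton exchanger), had differences from -0.02 to 0.09. Their 95% intervals ran from -0.27 to 0.33 at the widest, so a change of the size seen for Ctsc or Gaa is outside them.

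TFEB and its relatives bind E-box letters near the start of many lysosomal genes. RefSeq promoter windows of GRCm38.p6, from 250 bases before to 50 bases after a transcript start, were matched to 39 of the 46 members. They were searched for the E-box CACGTG and, within it, for the longer TCACGTGA, both of which read the same on either strand. The E-box occurred in a window of 14 of the 39 members (35.9%) and in 11.5% of the 10221 tested genes with a window (8.09% of all 27025 genes with one), and the longer form occurred in 8 members (20.5%), 2.16% of tested genes and 1.12% of all genes. The E-box was held by 4 of the 17 members that rose (23.5%), 2 of the 4 matched members that fell and 8 of the 18 that were not called. For the longer form these counts were 1, 1 and 6. Whether either string goes with the direction of change was not tested. A match is a string of letters and not a measured binding site.

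The following 120-base stretches, 5′ to 3′ on the strand of the gene, show E-boxes (capitals) upstream of 3 members that rose (Lamp1 with 4 of them, Glb1, and Atp6v1a with the longer form), of Gaa, which fell most, and of Clcn7, which was among the members closest to 0. They lie on the plus strand at chr8:13159041-13159160, on the plus strand at chr9:114400958-114401077, on the minus strand at chr16:44139328-44139447, on the plus strand at chr11:119267766-119267885 and on the plus strand at chr17:25133271-25133390, in that order. Each lies upstream of the RefSeq transcript start that its window was set on. The Clcn7 stretch runs into the annotated range of that gene, which begins at chr17:25133378. The Atp6v1a stretch lies between exons inside the range of a longer transcript model.
Lamp1: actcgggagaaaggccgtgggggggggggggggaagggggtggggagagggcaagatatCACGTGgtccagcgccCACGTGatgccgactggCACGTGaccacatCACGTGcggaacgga
Glb1: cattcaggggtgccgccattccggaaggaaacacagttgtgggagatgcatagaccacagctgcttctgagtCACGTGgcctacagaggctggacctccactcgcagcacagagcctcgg
Atp6v1a: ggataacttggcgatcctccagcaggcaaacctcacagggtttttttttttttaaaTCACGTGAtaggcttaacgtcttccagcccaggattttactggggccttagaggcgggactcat
Gaa: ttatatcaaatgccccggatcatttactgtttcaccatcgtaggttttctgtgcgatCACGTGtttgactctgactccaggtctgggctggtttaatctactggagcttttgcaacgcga
Clcn7: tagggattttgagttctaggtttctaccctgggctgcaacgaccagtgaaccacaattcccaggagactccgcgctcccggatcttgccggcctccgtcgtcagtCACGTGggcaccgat
Ctsc, Ctss, Grn and Ppt1, among the members with the largest rises, had no E-box in their windows, which says only that these letters are absent there.

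In the membrane sector V0 of the pump, 1 of 6 genes rose, 1 fell and 4 were not called. Each direction holds 16.7% of these genes, below the 19.1% higher and 20.7% lower among all tested genes. The 2 V0 genes that moved encode the same position of the enzyme. Tcirg1 and Atp6v0a1 are alternative forms of the a subunit, the large subunit that lines the proton path, and TCIRG1 (the a3 form) is the one that osteoclasts place at their bone-facing membrane. Tcirg1 (chr19:3896050-3907133) read 6.76, 6.82, 6.76 and 6.96 log2 CPM in scr and 7.62, 7.19, 7.28 and 7.32 in IL6KOs1 tumors, with no overlap and a rise of 0.53 ± 0.10 (limma adjusted p = 0.00166). Atp6v0a1 (chr11:101009422-101063719) read 6.26, 5.80, 5.68 and 5.54 in scr and 5.40, 5.30, 5.20 and 5.46 in IL6KOs1 tumors. Here scr tumor 1 was well above the rest and the nearest tumors of the groups were less than 0.1 log2 units apart. The log2 fold change was -0.48 ± 0.14 (limma adjusted p = 0.0179), and the call was lost without IL6KOs1 tumor 3 (adjusted p = 0.0529).

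Within a tumor, the log2 ratio of Tcirg1 to Atp6v0a1 was 0.50, 1.02, 1.08 and 1.41 in scr and 2.22, 1.88, 2.08 and 1.85 in IL6KOs1 tumors. All IL6KOs1 tumors were above all scr tumors, and the ratio shifted by 1.01 log2 units. This pair was chosen after its values had been seen, so the shift is a description with no test, as are those of Ctss over Ctsl (1.54) and of Atp6v0d2 over Atp6v0d1 (4.76). The third a subunit gene, Atp6v0a2, read 5.51 to 5.91 in scr and 5.15 to 5.66 in IL6KOs1 tumors and was not called (-0.24 ± 0.13, limma adjusted p = 0.154), and Atp6v0a4 did not pass 4 reads in any tumor.

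A second pair of V0 forms differed more. Atp6v0d1 (chr8:105524461-105566064), the general d subunit, read 6.40, 6.25, 5.87 and 5.85 log2 CPM in scr and 6.26, 6.54, 6.35 and 6.07 in IL6KOs1 tumors, an overlap, and was not called (0.21 ± 0.14, limma adjusted p = 0.251). Atp6v0d2 (chr4:19876838-19922566), the d form of osteoclasts and some macrophages and not one of the 46, had 4, 29, 6 and 8 reads in scr and 326, 168, 365 and 303 reads in IL6KOs1 tumors. Every IL6KOs1 tumor had more than 5 times the reads of the highest scr tumor, and the log2 fold change was 4.97 ± 0.48 (limma adjusted p = 2.04e-05). It is named here because of its values, its mean being under the level of 3 log2 CPM set for naming genes outside the 46.

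**Figure D3:**
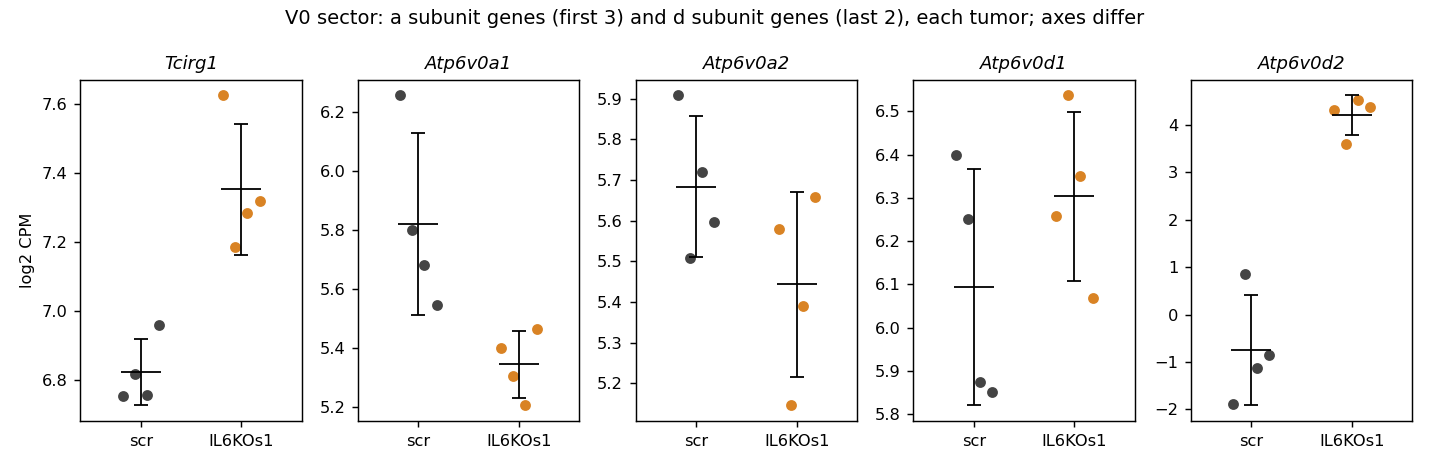
Log2 CPM (y axis, a scale of its own in each panel) of the a subunit genes Tcirg1, Atp6v0a1 and Atp6v0a2 and of the d subunit genes Atp6v0d1 and Atp6v0d2 in the scr (dark) and IL6KOs1 (orange) tumors, with mean and SD. Tcirg1 and Atp6v0d2 lie higher in every IL6KOs1 tumor, Atp6v0a1 lies lower in every one, and the other panels overlap.

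The other V0 genes were Atp6v0b, Atp6v0c and Atp6v0e, of which the first 2 encode proteolipids of the rotating ring. Atp6v0b (chr4:117884330-117887333), the highest of the sector by mean log2 CPM over the 8 tumors (Tcirg1 was higher in IL6KOs1 tumors), read 7.29, 7.39, 7.31 and 7.46 in scr and 7.48, 7.40, 7.28 and 7.02 in IL6KOs1 tumors, a difference of -0.07 ± 0.10. Atp6v0c differed by 0.35 ± 0.15 and was not called (limma adjusted p = 0.0858), but it was called without scr tumor 1 (0.48, adjusted p = 0.0141) or without IL6KOs1 tumor 4 (0.46, adjusted p = 0.0277). The summed level of the sector was 571 ± 16 CPM in scr and 633 ± 50 in IL6KOs1 tumors (exact permutation p = 0.114).

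Of the 8 genes of the cytosolic sector V1, 2 rose, 1 fell and 5 were not called. The shares are 25.0% higher and 12.5% lower, beside 19.1% and 20.7% of all tested genes. Atp6v1a (chr16:44085402-44139702), the catalytic A subunit that splits ATP, read 6.83, 7.01, 6.96 and 7.07 log2 CPM in scr and 7.45, 7.24, 7.55 and 7.61 in IL6KOs1 tumors. There was no overlap and the rise was 0.49 ± 0.10 (limma adjusted p = 0.00186). Its partner Atp6v1b2 (chr8:69088736-69113718), the B subunit that alternates with A in the same ring and the highest of the sector by CPM, read 7.84, 8.15, 7.88 and 8.18 in scr and 7.99, 8.12, 7.88 and 7.72 in IL6KOs1 tumors. It was not called, at -0.08 ± 0.11 (limma adjusted p = 0.582).

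Atp6v1d (chr12:78842982-78862008), a part of the central stalk, read 5.44, 5.66, 5.28 and 5.57 in scr and 6.02, 5.69, 5.93 and 5.76 in IL6KOs1 tumors. The nearest tumors all but touched, the rise was 0.36 ± 0.11 (limma adjusted p = 0.0207), and it lost the call without scr tumor 3 or IL6KOs1 tumor 1 or 3 (adjusted p 0.051 to 0.0674). Atp6v1h (chr1:5082978-5163213), the regulatory H subunit, read 6.27, 6.58, 6.43 and 6.40 in scr and 6.22, 6.09, 6.17 and 5.996 in IL6KOs1 tumors. It fell by 0.30 ± 0.09 with no overlap (limma adjusted p = 0.0187), and lost the call without scr tumor 2 (adjusted p = 0.0575).

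Atp6v1c1, Atp6v1e1, Atp6v1f and Atp6v1g1 differed by 0.04 to 0.19 and were not called. The accessory genes Atp6ap1 and Atp6ap2 were not called either, at 0.09 ± 0.07 and 0.09 ± 0.14. Atp6ap2 (chrX:12587759-12617051), the prorenin receptor, read 7.81, 7.84, 7.52 and 7.77 in scr and 7.39, 7.89, 8.09 and 7.91 in IL6KOs1 tumors, the lowest tumor of all being IL6KOs1 tumor 1. Over all 16 pump genes the summed level was 1895 ± 83 CPM in scr and 2053 ± 79 in IL6KOs1 tumors, a ratio of 1.08 (exact permutation p = 0.0857).

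Several of the smaller changes were about as large as those of their chromosomal neighbours. The median log2 fold change in a gene's 10 Mb window was taken over the other tested genes there, the gene itself left out. Of the 46 members, 13 sat in windows whose median was beyond 0.2 in either direction. Lipa had a rise of 0.26 in a window with a median of 0.44, Atp6v1a 0.49 in a window of 0.35, Psap 0.42 in one of 0.34, and Tcirg1 0.53 in one of 0.33. Atp6v1h fell by 0.30 in a window of -0.24.

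After each window's median, here with the gene itself included, was taken off, 15 members were called higher and 2 lower. The call was lost for 10 members, namely Lamp1, Neu1, Psap, Lipa, Tpp1, Atp6v0a1, Atp6v1a, Atp6v1d, Atp6v1h and Tcirg1, so that none of the 5 pump genes called before was still called. Lamp1 and Neu1 kept nearly the same difference (0.25 and 0.35, limma adjusted p = 0.0541 and 0.0785). Among the others, the remaining differences were 0.13 for Atp6v1a, 0.20 for Tcirg1, 0.08 for Psap and -0.33 for Atp6v0a1 (limma adjusted p = 0.322, 0.169, 0.695 and 0.094). A call was gained by 5 members, all higher, namely Ctsa, Ctsd, Ctsz, Scarb2 and Atp6v0c, and 4 of these had windows with medians between -0.33 and -0.21. Ctsc, Ctss, Lgmn, Gaa, Gla, Grn, Ppt1, Npc2, Hexa, Glb1, Man2b1 and Tfeb kept theirs. Why windows moved was not tested.

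**Figure D4:**
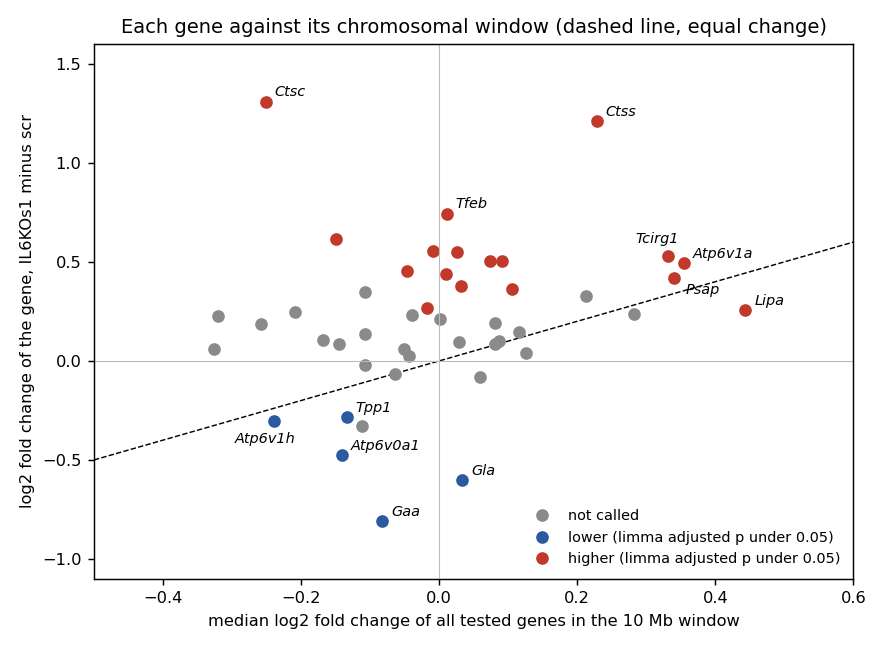
Each point is 1 of the 46 genes, with the median change (log2) over the tested neighbours in its 10 Mb window on the x axis and its own log2 fold change on the y axis, coloured by call. Ctsc, Ctss, Tfeb, Gla and Gaa lie far from the dashed line of equal change, while Atp6v1a, Psap, Tcirg1 and Atp6v1h lie nearer to it and Lipa lies below it.

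Lysosomal genes outside the 46 gave the following counts. Of 35 other hydrolases and activators 15 rose and 1 fell, so that 42.9% were called higher beside 19.1% of all tested genes, and their summed level went from 1486 to 1570 CPM in scr to 2086 to 2567 CPM in IL6KOs1 tumors (ratio 1.51, exact permutation p = 0.0286). The largest rises were those of Acp5, the tartrate-resistant acid phosphatase, and Ctsk, the collagen-degrading cathepsin K. These 2 genes made up a large part of the rise of the sum. Mean CPM in scr and IL6KOs1 tumors was 27.5 and 306 for Ctsk, 17.0 and 199 for Acp5, and 1525 and 2299 for the whole sum. Acp5 read 3.70, 3.72, 4.33 and 4.45 log2 CPM in scr and 7.75, 6.72, 8.21 and 7.49 in IL6KOs1 tumors (3.49 ± 0.27, limma adjusted p = 5.02e-06). Ctsk read 5.09, 4.66, 4.63 and 4.70 in scr and 8.09, 7.57, 8.79 and 8.30 in IL6KOs1 tumors (3.42 ± 0.21, limma adjusted p = 1.05e-06). Both are also markers of osteoclasts, and in both IL6KOs1 tumor 3 was highest, not tumor 1 as in Ctsc and Ctss.

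Hyal2, a hyaluronidase, fell by 0.85 ± 0.10 (limma adjusted p = 8.62e-05). Of 24 other lysosomal membrane proteins tested 10 rose (41.7%, beside 19.1% of all tested genes) and 3 fell (Tmem9, Abca2 and Cln3), with Cd68 (1.28 ± 0.16), the peptide transporter Slc15a3 (1.00 ± 0.34) and Laptm5 (0.98 ± 0.15) the largest rises. Of 14 other pump subunits and assembly factors tested 3 rose (Atp6v0d2, Ncoa7 and Oxr1; 21.4%) and 2 fell (Dmxl2, with a log2 fold change of -1.13 ± 0.15, and Tmem199; 14.3%), near or below the shares of all tested genes. Slc15a3 lost its call without any one scr tumor or IL6KOs1 tumor 2 (limma adjusted p 0.0531 to 0.0837), Cln3 without scr tumor 2, 3 or 4 or IL6KOs1 tumor 3 or 4 (0.0735 to 0.107), and Tmem199 without scr tumor 2 or 4 or IL6KOs1 tumor 1, 3 or 4 (0.056 to 0.114). With window medians removed, these 3, Ncoa7 and Oxr1 lost theirs.

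Of 15 genes that sort hydrolases to the lysosome through the mannose 6-phosphate tag 3 rose and 5 fell (33.3%, beside 20.7% of all tested genes), with a median log2 fold change of -0.01. Their summed level was 1379 to 1612 CPM in scr and 1249 to 1335 CPM in IL6KOs1 tumors (ratio 0.865, exact permutation p = 0.0286), and Igf2r alone made up that drop. Igf2r had 370 to 467 CPM in scr and 167 to 199.9 CPM in IL6KOs1 tumors, while the other 14 genes summed to 1010 to 1145 and 1063 to 1136 CPM. The 2 receptors of the tag moved apart. Igf2r (chr17:12682406-12769706), the cation-independent receptor that also clears the growth factor IGF2, read 8.87, 8.53, 8.74 and 8.78 log2 CPM in scr and 7.64, 7.39, 7.58 and 7.59 in IL6KOs1 tumors, a log2 fold change of -1.18 ± 0.09 (limma adjusted p = 5.72e-06). M6pr (chr6:122308720-122317680), the cation-dependent receptor, read 7.08, 7.06, 7.08 and 7.03 in scr and 7.60, 7.49, 7.54 and 7.52 in IL6KOs1 tumors, a rise of 0.48 ± 0.07 (limma adjusted p = 0.00032). Their log2 ratio, M6pr over Igf2r, shifted by 1.66 with no overlap, a description of a pair chosen after its values had been seen. Among the enzymes that make the tag, Gnptab rose by 0.37 ± 0.09 and Gnptg fell by 0.52 ± 0.11, and the adaptor Gga2 fell by 0.58 ± 0.10, of which Gnptab and Gga2 were not called with window medians removed.

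Among 17 tested genes for TFEB's relatives and regulators 3 rose and 3 fell, a share of 17.6% in each direction beside 19.1% and 20.7% of all tested genes. Mitf, a relative of TFEB, fell by 0.75 ± 0.13 (limma adjusted p = 0.001). Flcn, the folliculin that helps to hold TFEB family factors in the cytosol, fell by 0.77 ± 0.10 (limma adjusted p = 0.000133), and the kinase Mtor fell by 0.33 ± 0.10 (limma adjusted p = 0.02). Rraga and Rragc, GTPases that bring the kinase to the lysosome, rose by 0.31 ± 0.08 and 0.31 ± 0.10, and Lamtor5 rose by 0.28 ± 0.09. Rragc lost its call without scr tumor 3 or 4 or IL6KOs1 tumor 1 or 2 (limma adjusted p 0.0527 to 0.0844), Lamtor5 without scr tumor 1 or 2 or IL6KOs1 tumor 1 or 2 (0.054 to 0.0754) or with window medians removed, and Mtor without scr tumor 3 or IL6KOs1 tumor 2 (0.0629 and 0.0539). Of 26 autophagy genes 7 rose and 7 fell, 26.9% in each direction beside 19.1% and 20.7% of all tested genes. Their summed level was 2408 ± 119 CPM in scr and 2399 ± 146 in IL6KOs1 tumors (exact permutation p = 0.886). Tex264, Atg5 and Atg3 had the largest rises (0.64, 0.58 and 0.44), and Atg4b, Atg16l1 and Wipi2 the largest falls (-0.96, -0.65 and -0.60), of which Atg5, Atg3 and Wipi2 were not called with window medians removed. Of 7 tested genes listed with the cystatins and other cathepsin inhibitors 5 rose (71.4%, beside 19.1% of all tested genes) and none fell. Of the 11 genes listed, 4 had at most 3 reads in every tumor. Cstb, the inhibitor of cathepsins in the cytosol, rose by 0.37 ± 0.10 (not called with window medians removed), while the secreted inhibitor Cst3 (0.02 ± 0.12) and Spp1, which is not an inhibitor though it stood in the list, were not called.

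Markers of some cell types differed between the groups. In bulk tissue a change in the number of cells of a type and a change in their RNA per cell cannot be told apart. Of 14 macrophage and monocyte markers 13 were higher in IL6KOs1 tumors (92.9%, beside 19.1% of all tested genes) and 1, Mertk, was lower (7.14%, beside 20.7%). The groups overlapped in C1qc and Mrc1. Mrc1 only just passed (limma adjusted p = 0.0499) and kept the call in 2 of the 8 fits that left out a tumor. The summed level of the 14 markers was 1016, 1268, 1279 and 1147 CPM in scr and 3488, 2008, 2256 and 2240 CPM in IL6KOs1 tumors, a ratio of 2.12 (exact permutation p = 0.0286). IL6KOs1 tumor 1, the highest in this sum, was the highest of its group in 11 of the 17 members that rose. Among the other rising members, Hexa and Glb1 were highest in tumor 3, Lamp1 and Tfeb in tumor 2, and Lipa and Atp6v1a in tumor 4. Of the markers, Mrc1 and Cd14 were highest of that group in tumor 2, Ccr2 in tumor 3 and Mertk in tumor 4. The 8 tested genes of 9 osteoclast and giant cell markers all rose, beside 19.1% of all tested genes. The sum of this list was 61 to 73 CPM in scr and 504 to 1120 CPM in IL6KOs1 tumors, highest in tumor 3. That list shares Ctsk, Acp5 and Atp6v0d2 with the lysosomal lists, the macrophage list shares Cd68, and Calcr, the calcitonin receptor of osteoclasts, did not pass 8 reads in any tumor. The part of these cell types in the changes of the lysosomal genes was not tested.

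Other marker lists gave these values. The sums for mast cells (14 to 18 against 37 to 239 CPM), T cells (1.12 to 3.27 against 10.4 to 18.3 CPM) and B and plasma cells (1.498 to 3.51 against 8.91 to 74.8 CPM) were higher in every IL6KOs1 tumor. Mast cell markers were lowest in IL6KOs1 tumor 1 and B and plasma cell markers highest there. The dendritic cell sum was lower (78 to 107 against 17 to 61 CPM). Most of it was Itgax, at a mean of 75.8 of 89.2 CPM in scr and 24.8 of 31.4 CPM in IL6KOs1 tumors. Zbtb46 and Itgax, its only tested genes, were both lower. The untested Flt3, Xcr1, Clec9a, Batf3 and Cd209a had higher means in IL6KOs1 tumors, at no more than 36 reads in any tumor. Fibroblast (7784 to 10322 against 5555 to 8704 CPM), endothelial (114 to 182 against 124 to 155 CPM), neutrophil (11.6 to 23.7 against 16.1 to 29.8 CPM), skeletal muscle (6.56 to 149 against 21.4 to 307 CPM) and adipocyte sums (115 to 165 against 98.9 to 223 CPM) overlapped. The fibroblast sum hides calls in both directions. Of its 7 genes 3 were lower (42.9%, beside 20.7% of all tested genes), namely Pdgfra (-0.78 ± 0.14), Pdgfrb (-0.77 ± 0.14) and Col3a1 (-0.53 ± 0.17). Lum was higher (1.01 ± 0.23; 14.3%, beside 19.1%). Col3a1 kept its call in 3 of the 8 fits that left out a tumor. The epithelial sum, nearly all of it Krt20, was 1081 to 1291 against 1325 to 1450 CPM, and it does not show the rises of Krt18 and Cdh1 or the fall of Cdx2.

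**Figure D5:**
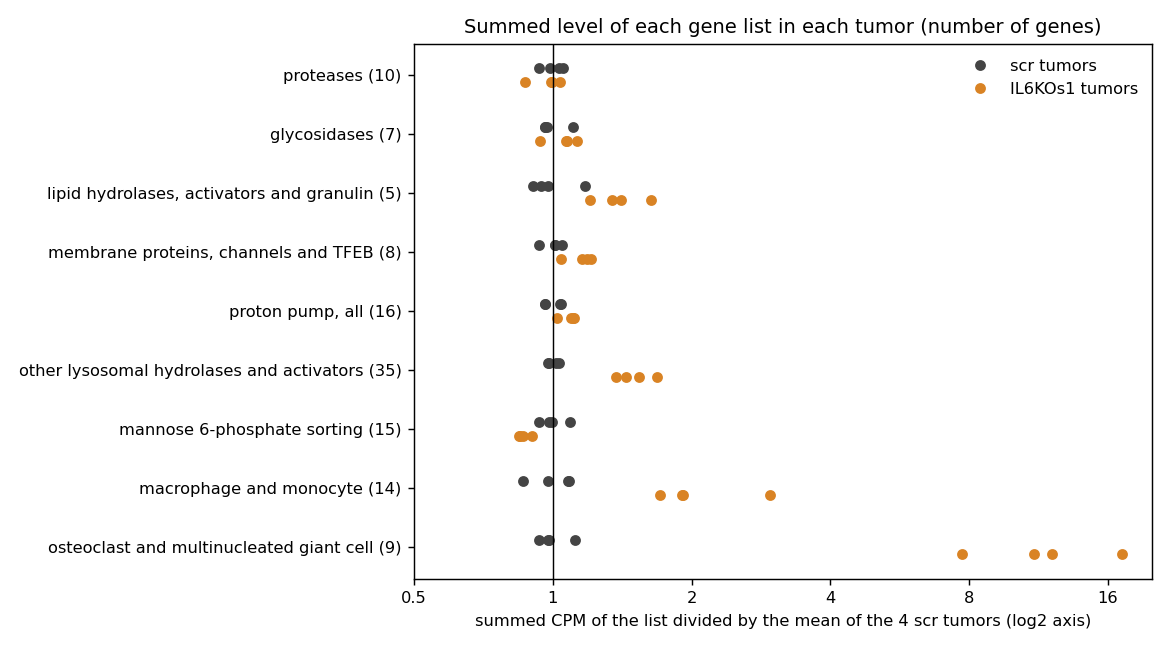
Summed CPM of 9 gene lists in each tumor, divided by the mean of the 4 scr tumors (x axis, log2 scale), for scr (dark) and IL6KOs1 tumors (orange), with the number of genes in brackets. The protease, glycosidase and pump sums stay close to 1. The lipid group and the other hydrolases lie to the right in every IL6KOs1 tumor, the latter in large part through Ctsk and Acp5. Sorting genes lie to the left through Igf2r. Of the lists drawn, the macrophage and osteoclast lists lie furthest to the right at mean ratios of 2.12 and 12.01.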

How the data were processed

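Tumor RNA from 4 cxC26 scr and 4 cxC26 IL6KOs1 tumors was sequenced by the authors as paired reads of 150 bases. Per their methods and processing notes, reads were trimmed with Trimmomatic, aligned to mm10 with HISAT2, counted per gene with featureCounts (versions and strand setting not given in the sources used here) and normalized with limma-voom; bcl2fastq 2.17 is also named. The deposited values are log2 CPM per gene and tumor. Undoing the log2 step gave whole reads for 100% of values (tolerance 0.01 reads), used only to state depth and reads: 14158989 to 17048062 per tumor. Such depths leave counting error small except for genes with few reads.

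The 13262 of 27179 genes that reached 1 CPM in 4 or more of 8 tumors were fitted with limma 3.58.1 (R 4.3.3; lmFit, eBayes with a trend, no covariates), with Benjamini-Hochberg adjustment over all of them. The script was tested on simulated data. Summed levels were compared by two-sided exact permutation over all 70 splits, as a description and not as a test of a list. Labels do not say that replicates are more than separate tumors, so p-values measure the spread between tumors. Normalized log2 values rest on total RNA, so all changes are relative.

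The 46 members, the other gene lists and the marker lists were chosen with earlier results of these data known. Values per tumor are given, in each role, for up to 2 called members with the largest rise, up to 2 with the largest fall and the highest member, and for Lamp1 and Tfeb; from each other list, for up to 3 rises and 3 falls whose mean log2 CPM was 3 or more, with others named beside counts; some genes of these lists are not reported here by name. Gene positions, promoter windows and exon lengths come from RefSeq (GRCm38.p6) and GENCODE M21. Python 3.11.15 and matplotlib 3.10.9 were used. Alternatives were no filter, a stricter filter, quantile normalization, median re-centring, a replicate block, voom weights, no trend, an offset of 1 CPM, a 2-fold threshold, window medians removed and each tumor left out.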

Additional observations from a re-analysis of the deposited data

Results flagged for a closer look

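Within a group of 4 tumors, 1 tumor stood apart from the other 3 by more than Dixon's critical value in 8 of 158 gene groups examined, and chance gives about 1 in 20, or 7.9. Among the members, Man2b1 was highest in IL6KOs1 tumor 1 at 7.01 log2 CPM, with the others at 6.56 to 6.62. Grn was highest in scr tumor 1 at 8.29, with the others at 7.67 to 7.75, and Psap was highest in the same tumor at 9.94, with the others at 9.57 to 9.61. Both rises would have been larger against the other 3 scr tumors, 0.76 for Grn and 0.51 for Psap. The rise of Man2b1 would have been smaller without IL6KOs1 tumor 1, at 0.40. Outside the members, Ctsk was highest in scr tumor 1 at 5.09, Laptm5 highest in IL6KOs1 tumor 1 at 6.86, Gga2 lowest in IL6KOs1 tumor 4 at 4.31, Flcn lowest in IL6KOs1 tumor 4 at 5.48 and Atg5 highest in scr tumor 2 at 5.02. The cause was not tested.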

How the results depend on the processing

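The count of members called higher stayed within 1.5 times of 17 under every alternative but the 2-fold threshold, which left 2; over the fits that left out a tumor it ran from 12 to 19. The count called lower was 3 after quantile normalization, 2 after window medians were removed and 0 at 2-fold, and 4 to 5 with a tumor left out. At 2-fold, 829 of all tested genes were higher and 521 lower. Replicate numbers did not pair the tumors (correlation of deviations -0.059 to 0.057, and not every tumor correlated best with its own number); with the replicate block 17 members were called higher and 5 lower, Neu1 being lost and Atp6v0c gained. Without the filter Lamp1, Neu1, Psap and Atp6v0a1 lost the call, quantile normalization lost Tpp1 and Atp6v1h and gained Atp6v1c1, and the variance without a trend lost Neu1. The members' median ran from 0.19 to 0.25. Uncalled members changed sign when window medians were removed (Cd63 -0.0437, Atp6v1g1 -0.0441, Clcn7 0.0839), and so did 3 called genes, Lipa (-0.174), Cln3 (0.0356) and Oxr1 (-0.0583); Clcn7 was 0.0241 after quantile normalization. With a tumor left out, signs changed for Atp6v0b (-0.128 to 0.023), Atp6ap2 (-0.0053 to 0.2295), Lamp2 (-0.0728 to 0.0793), Atp6v1g1 (-0.0866 to 0.1137) and Clcn7 (-0.1269 to 0.0363). The median of all genes moved by no more than 0.1 under every alternative fit, the one with window medians removed included. Limits: single tumors decide the calls of 5 rising and 3 falling members, named with their values above, and 12 rises and 2 falls were kept whichever tumor was left out. Genes near 1 CPM are limited by depth; no member is among them. IL-6 loss rests on 1 subclone.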

Other observations

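The hydrolases outside the 46 include enzymes of shared pathways. These genes were chosen after their values had been seen. Of those that degrade glycosaminoglycans, Arsb, the arylsulfatase that acts on dermatan sulfate, read 5.51, 5.38, 5.48 and 5.50 log2 CPM in scr and 6.09, 6.38, 6.70 and 6.75 in IL6KOs1 tumors, a rise of 1.01 ± 0.13 (limma adjusted p = 0.000171). Ids, the iduronate sulfatase, rose by 0.65 ± 0.15, and Hgsnat, an acetyltransferase of heparan sulfate breakdown, by 0.23 ± 0.08 (limma adjusted p = 0.0404), a call kept in 2 of the 8 fits that left out a tumor (highest adjusted p 0.123, without scr tumor 4). Naglu (0.05 ± 0.11), Sgsh (0.20 ± 0.14), Idua (0.15 ± 0.16) and Galns (-0.05 ± 0.13) of the same pathways were not called.

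Of the sphingolipid enzymes, Gm2a, the GM2 activator, rose by 0.83 ± 0.19, Asah1, the acid ceramidase, by 0.48 ± 0.10, and Arsa, the sulfatase of sulfatide, by 0.39 ± 0.09. Galc, the galactocerebrosidase (0.15 ± 0.12), and Smpd1, the acid sphingomyelinase (-0.07 ± 0.11), were not called. Gm2a was highest in IL6KOs1 tumor 1 at 6.28 log2 CPM, with 5.39 to 5.69 in the others and 4.73 to 5.23 in scr. Whether the called and uncalled enzymes differ from each other was not tested.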
